A study of Homo sapiens with 40 samples.

Results

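AEBP2 and 9 other genes of Polycomb repressive complex 2 (PRC2) were followed across 3 single-cell RNA sequencing protocols. The 10 genes were AEBP2, JARID2, EZH2, EZH1, SUZ12, EED, RBBP4, RBBP7, MTF2 and PHF19, out of 60279 genes listed in the count tables, and they were taken by name. The set was chosen by the measured AEBP2 level, which stood far higher in NEB cells, so the NEB values of AEBP2 are a description and not a test of anything. All cells were T47D, a luminal breast cancer cell line, from 1 culture at passage 10, sorted as positive for EpCAM and CD49f, with no treatment. The libraries came from G&T-seq (G&T, 13 cells), from the SMART-seq HT kit of Takara (13 cells) or from the NEBNext single cell kit (NEB, 14 cells), each on its own plate and sequencing run. After the quality thresholds of the study, 11 cells per protocol were kept, and 7 were removed (C2 and F1 in G&T and in Takara; B2, F1 and F2 in NEB). Protocol, plate and run cannot be told apart, so each protocol counts as 1 sample, its cells are not replicates of it, and no test between protocols was made. NEB cells received more PCR cycles than the others, and the Takara and G&T template-switch oligos carry a locked nucleic acid. The final NEB libraries were made with reagents of the NEB kit, and those of Takara and G&T with the Nextera XT kit. SMART-seq3 cells were not analysed here.

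PRC2 is the enzyme complex that places methyl groups on lysine 27 of histone H3, a mark of silenced genes. EZH2 or its paralog EZH1 is the catalytic subunit, and SUZ12, EED and one of the histone-binding proteins RBBP4 and RBBP7 complete the core. Accessory subunits join that core in separate forms of the complex. AEBP2 and JARID2 belong to the form called PRC2.2, while MTF2 and PHF19 are Polycomb-like proteins of the form called PRC2.1. EZH2 is the form typical of dividing cells, such as those of a cancer line, and EZH1 of resting tissue.

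The genes differ in base composition, with which the NEB ratios varied, so short coding stretches are shown for 4 of them. Each is the start of the longest coding exon of the canonical transcript (GENCODE release 44, GRCh38), read 5′ to 3′ on the coding strand, with G and C in capitals. A second stretch of AEBP2 (exon 7) is its last coding exon of over 100 bases. The stretches are MTF2 exon 15 (chr1:93136670-93136789, plus strand, 45.8% G and C), SUZ12 exon 16 (chr17:31998658-31998777, plus strand, 32.5%), AEBP2 exon 1 (chr12:19439700-19439819, plus strand, 76.7%), AEBP2 exon 7 (chr12:19514671-19514784, plus strand, 38.6%) and PHF19 exon 15 (chr9:120858167-120858286, minus strand, 65.8%).
MTF2: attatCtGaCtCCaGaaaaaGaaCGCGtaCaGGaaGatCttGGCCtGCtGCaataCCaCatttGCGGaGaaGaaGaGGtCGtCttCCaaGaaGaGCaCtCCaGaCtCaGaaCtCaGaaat
SUZ12: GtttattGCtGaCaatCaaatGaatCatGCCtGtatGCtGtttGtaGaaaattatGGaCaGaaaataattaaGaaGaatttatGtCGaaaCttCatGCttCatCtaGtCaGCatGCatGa
AEBP2 exon 1: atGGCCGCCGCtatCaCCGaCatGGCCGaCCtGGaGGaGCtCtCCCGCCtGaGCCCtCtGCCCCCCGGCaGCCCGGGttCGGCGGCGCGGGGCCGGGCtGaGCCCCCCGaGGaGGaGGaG
AEBP2 exon 7: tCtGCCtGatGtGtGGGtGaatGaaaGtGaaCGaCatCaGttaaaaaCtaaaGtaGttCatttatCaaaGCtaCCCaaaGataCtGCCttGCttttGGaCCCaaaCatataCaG
PHF19: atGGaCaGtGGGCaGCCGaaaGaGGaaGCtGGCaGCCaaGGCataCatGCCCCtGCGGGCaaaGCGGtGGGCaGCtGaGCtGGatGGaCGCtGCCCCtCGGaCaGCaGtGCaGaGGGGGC
AEBP2 holds both kinds of sequence. Its first exon is richer in G and C than the PHF19 stretch, its exon 7 is poor in both, and the whole AEBP2 transcript is at 38.6%.

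AEBP2 (ENSG00000139154; chromosome 12, 19404045 to 19720801, plus strand) encodes a zinc finger protein that stabilises PRC2. Levels are given as CPM, reads per 1000000 reads on genes in a cell, and a pooled level sums the reads of the 11 kept cells of a protocol. In G&T cells AEBP2 ranged from 0 to 24.8 CPM with a median of 13.5, and 2 of 11 cells had no read. Takara cells ranged from 9.05 to 30.9 CPM with a median of 20.2. NEB cells ranged from 176 to 1267 CPM with a median of 819. The lowest NEB cell therefore stood above the highest cell of either other protocol, while G&T and Takara cells overlapped. Pooled, AEBP2 reached 769 CPM in NEB (6129 reads, 95% Poisson interval 750 to 788) against 19.5 CPM for Takara (229 reads, 17.1 to 22.2) and 11.2 CPM for G&T (106 reads, 9.13 to 13.5). Such intervals cover counting error only. The log2 ratio, taken after adding 1 CPM to both levels, was 5.98 for NEB over G&T and 5.23 for NEB over Takara, the rank 3 and rank 15 values from the top among 13064 genes with a mean pooled level of at least 1 CPM. Takara over G&T was 0.76, with the difference of the cell means (6.84 CPM) smaller than the SD over G&T cells (9.55 CPM, n = 11 cells).

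NEB cells had more reads on the ERCC spike-in RNAs, between 5.66% and 18.9% of a cell's library against 0.538% to 2.75% in the other cells, so the direction of a ratio can depend on the scale. Per 1000 ERCC reads the median gene shifted by -2.76 in log2 for NEB over G&T, by -3.76 for NEB over Takara and by 0.99 for Takara over G&T. On that scale AEBP2 was still higher in NEB, by 3.35 over G&T and 1.54 over Takara in log2, with 5.87 reads per 1000 ERCC reads in NEB against 2.02 (Takara) and 0.578 (G&T). The other 9 genes were all lower in NEB than in either protocol on that scale. Taking the median shift off gave 6.11 and 5.30, close to the CPM ratios of 5.98 and 5.23, because it undoes the change of scale. These values are not separate support. Directions given below are shares of gene reads, and a ratio that turns per ERCC read is named where it is given.

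**Figure D1:**
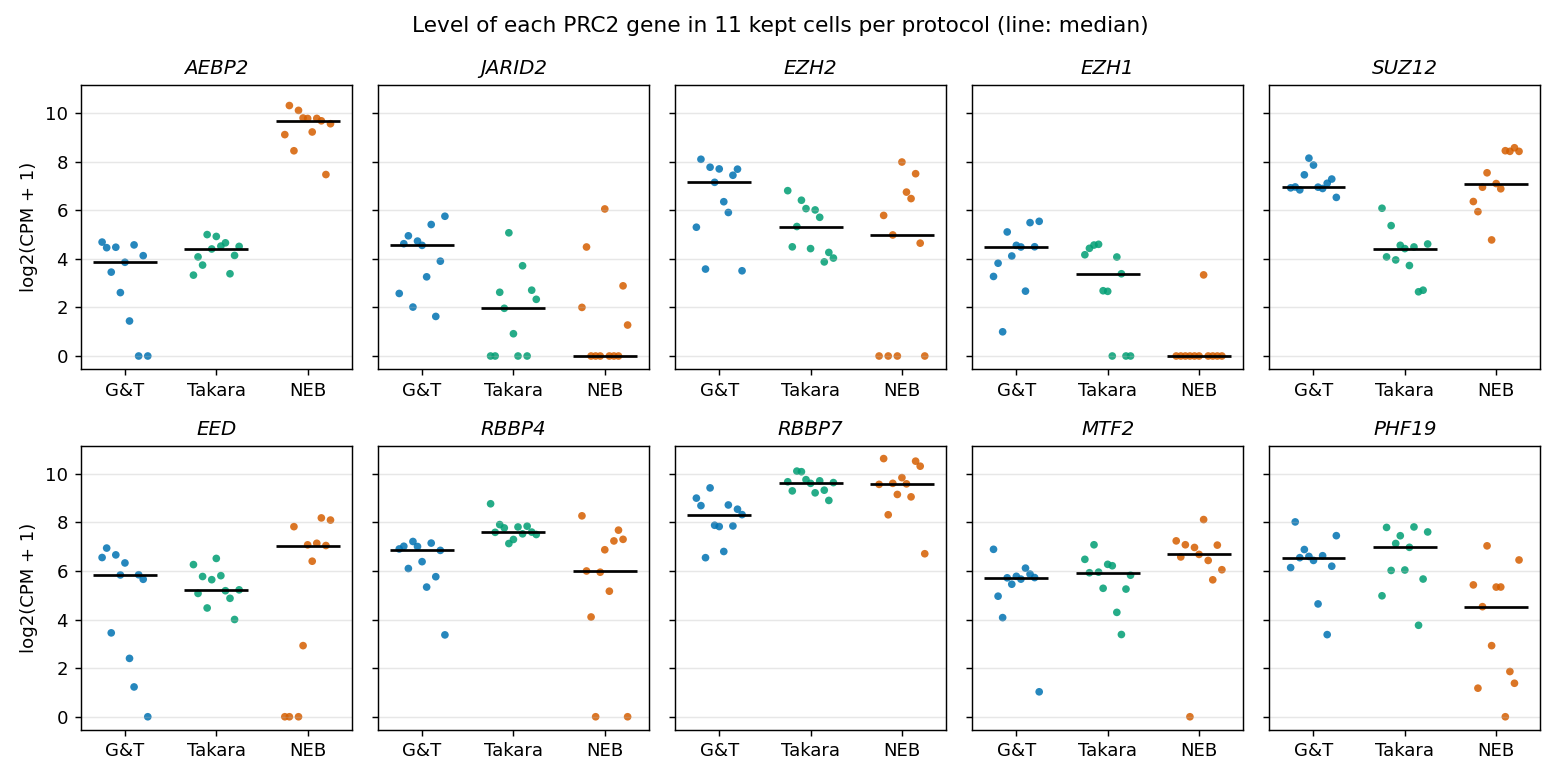
Level of the 10 PRC2 genes in the 11 kept cells of each protocol, as log2(CPM + 1) on the vertical axis. Each point is 1 cell and the line is the median. All NEB points of AEBP2 lie above all G&T and Takara points, all Takara points of SUZ12 lie below all G&T points, and EZH1 has 1 NEB point above 0.

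Of the 10 genes, 4 were at least 2-fold higher and 2 at least 2-fold lower in NEB than in G&T, where 20.2% and 44.4% of the 13064 genes were. For NEB over Takara 3 were higher and 3 lower (23.1% and 41.8% of all genes). For Takara over G&T 2 were higher and 3 lower (17.4% and 20.9%). The median log2 ratio of the 10 genes was 0.27, 0.70 and 0.08 in these comparisons, against -0.67, -0.51 and -0.03 over all genes tested. AEBP2, for which the set was chosen, is among the genes counted as higher in NEB and is part of these medians. The comparisons share protocols, and the values of each are its own. AEBP2 was the 1 gene of the 10 with every NEB cell above every G&T cell and above every Takara cell in CPM, which 1.16% and 1.67% of all genes were. Per 1000 ERCC reads this separation was lost. AEBP2 then ranged from 1.06 to 14.6 in NEB cells, from 0.809 to 3.51 in Takara cells and from 0 to 1.74 in G&T cells, and 10 of 11 NEB cells were above every G&T cell and 8 of 11 above every Takara cell.

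**Figure D2:**
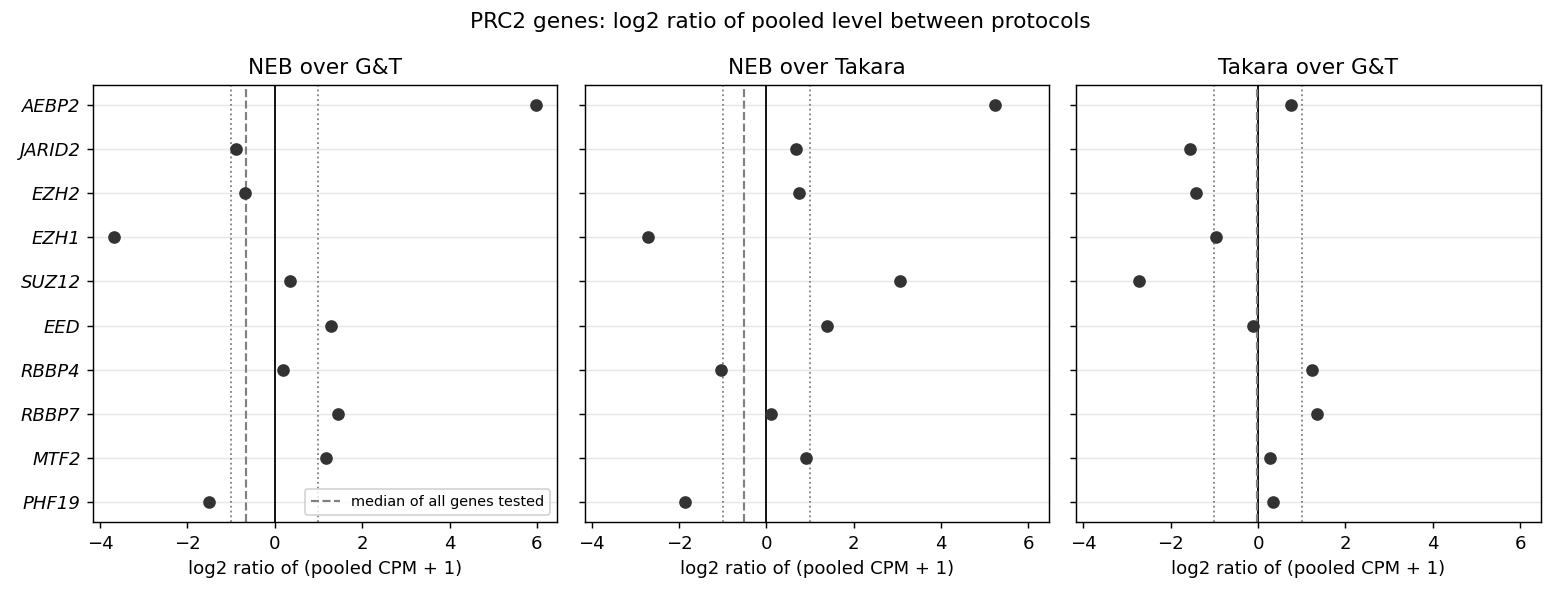
Log2 ratio of pooled CPM + 1 between protocols (horizontal axis) for each PRC2 gene (rows). The dotted lines mark 2-fold and the dashed line is the median of all genes tested. AEBP2 lies at 5.98 and 5.23 for NEB, SUZ12 at -2.72 for Takara over G&T, and EZH1 at the low end of both NEB panels.

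JARID2 (ENSG00000008083), the DNA-binding partner of AEBP2 in PRC2.2, did not share its pattern. G&T cells held 2.09 to 52.9 CPM with a median of 22.5, and all 11 had a read. Takara cells held 0 to 32.6 CPM with a median of 2.90 (7 of 11 cells with a read), and NEB cells 0 to 65.4 CPM with a median of 0 (5 of 11 cells). The protocols overlapped at every pair. Pooled levels were 20.9, 6.49 and 10.9 CPM, so that the log2 ratio was -1.55 for Takara over G&T and -0.88 for NEB over G&T. Single cells decided the JARID2 values. Without the NEB cell D1, which held 63 of the 87 NEB reads, NEB over G&T was -2.31 and NEB over Takara went from 0.67 to -0.76 (it was -3.01 per ERCC read with all cells). Without the Takara cell C1, Takara over G&T was -2.37 and NEB over Takara 1.48.

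EZH2 (ENSG00000106462), the main methyltransferase of dividing cells, had reads in all 11 G&T cells (10.4 to 273 CPM, median 141), all 11 Takara cells (13.6 to 111 CPM, median 39.2) and 7 of 11 NEB cells (0 to 252 CPM, median 30.6). G&T cells were highest in the median, but cells of all protocols overlapped. Pooled EZH2 was 120 CPM (G&T), 44.04 (Takara) and 74.1 (NEB), a log2 ratio of -1.43 for Takara over G&T, -0.69 for NEB over G&T and 0.74 for NEB over Takara, the last turning to -3.00 per ERCC read. Each difference of the means was smaller than the larger SD over cells. EZH1 (ENSG00000108799), the weaker methyltransferase, ranged from 0.995 to 45.6 CPM in G&T (11 of 11 cells, median 21.4) and from 0 to 23.2 CPM in Takara (8 of 11 cells, median 9.45). In NEB, 6 EZH1 reads fell in 1 of 11 cells (9.09%, exact 95% interval 0.230% to 41.3%), the cell D2 at 9.11 CPM. The NEB level was 0.752 CPM pooled (0.276 to 1.64), 28.4-fold below G&T and 13.8-fold below Takara as a plain ratio of CPM, and the log2 ratios with 1 CPM added were -3.67 and -2.70. Without D2 there was no EZH1 read in the kept NEB cells, and the ratios were -4.48 and -3.51.

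SUZ12 (ENSG00000178691), the scaffold on which the core and the accessory subunits assemble, separated Takara from G&T. G&T cells held 91.3 to 282 CPM with a median of 123. Takara cells held 5.25 to 66.7 CPM with a median of 20.4, and NEB cells 26.4 to 379 CPM with a median of 136. Every Takara cell was below every G&T cell, which 0.75% of all genes showed in CPM (per ERCC read 9 of 11 Takara cells were), and 9 of 11 NEB cells were above every Takara cell. Pooled SUZ12 was 150 CPM (G&T), 21.8 (Takara) and 191 (NEB). The log2 ratio of Takara over G&T was -2.72, rank 114 from the bottom of 13064 genes, and -1.78 per ERCC read. NEB over Takara was 3.07, but turned to -0.63 per ERCC read, and NEB over G&T was 0.35 (-2.41 per ERCC read). The pseudogene SUZ12P1, a partial copy of SUZ12, had 71 reads (G&T), 69 (Takara) and 71 (NEB). The study reported multimapped reads as a category of their own, and how many of them matched both copies was not tested.

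EED (ENSG00000074266), which binds the methyl mark and stimulates the enzyme, had levels of 0 to 122 CPM in G&T cells (median 56.1), 15.0 to 90.5 in Takara cells (median 36.3) and 0 to 290 in NEB cells (median 131). In 3 of 11 NEB cells and 1 G&T cell EED had no read, while 6 NEB cells were above every cell of either other protocol. Pooled EED was 47.5, 43.95 and 117 CPM. The log2 ratio was 1.29 for NEB over G&T and 1.40 for NEB over Takara, both turning per ERCC read (-1.46 and -2.34). Takara over G&T was -0.11, and 0.88 per ERCC read.

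RBBP7 (ENSG00000102054) and RBBP4 (ENSG00000162521), histone-binding proteins shared with other chromatin complexes, were the members at least 2-fold higher in Takara than in G&T, which held per ERCC read too (log2 ratio 2.34 for RBBP7 and 2.25 for RBBP4). RBBP7 ranged from 92.5 to 684 CPM in G&T (median 318), from 478 to 1104 in Takara (median 796) and from 104 to 1579 in NEB (median 767), and no kept cell lacked it. Of the Takara cells, 7 of 11 were above every G&T cell in CPM. The RBBP7 log2 ratio was 1.35 for Takara over G&T, 1.44 for NEB over G&T (-1.32 per ERCC read) and 0.10 for NEB over Takara (-3.66 per ERCC read). RBBP4 ranged from 9.34 to 147 CPM in G&T (median 114), from 139 to 434 in Takara (median 193) and from 0 to 308 in NEB (median 63.0, 9 of 11 cells with a read). Here 10 of 11 Takara cells were above every G&T cell in CPM, and 7 of 11 NEB cells were below every Takara cell. Per ERCC read, 11 of 11 Takara cells were above every G&T cell for both RBBP7 and RBBP4. On that scale 11 of 11 NEB cells were below every Takara cell for both. No share over all genes is given for these separations. The RBBP4 log2 ratio was 1.24 for Takara over G&T and -1.05 for NEB over Takara. Both Takara over G&T differences of the means exceeded the larger SD over cells. The gene TXLNG overlaps the end of RBBP7 on the other strand and had 737, 459 and 284 reads in G&T, Takara and NEB, and whether the counting used strand is not stated.

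MTF2 (ENSG00000143033) and PHF19 (ENSG00000119403), which guide PRC2.1 to chromatin, differed in direction between NEB and the other protocols. MTF2 ranged from 1.04 to 118 CPM in G&T (median 51.7), from 9.45 to 134 in Takara (median 59.9) and from 0 to 276 in NEB (median 102). PHF19 ranged from 9.41 to 258 CPM in G&T (median 92.5), from 12.6 to 224 in Takara (median 125) and from 0 to 130 in NEB (median 22.1). All groups of cells overlapped for both genes in CPM. Per 1000 ERCC reads every NEB cell was below every Takara cell for PHF19 (at most 0.657 against at least 1.08). No share over all genes is given for that separation. The MTF2 log2 ratio was 1.18 for NEB over G&T (-1.57 per ERCC read) and 0.90 for NEB over Takara (-2.84 per ERCC read), whereas PHF19 was at -1.51 and -1.85. For Takara over G&T the MTF2 and PHF19 values were 0.27 and 0.34.

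Per length of exon sequence, the balance between subunits within a library does not depend on the scale between protocols. RBBP7 was the highest of the 10 genes per length in each protocol. AEBP2 was rank 10 in G&T, rank 8 in Takara and rank 2 in NEB, and its rank was the same with the canonical transcript length. The ratio of AEBP2 to EZH2 reads per kilobase was 0.148 (G&T), 0.706 (Takara) and 16.5 (NEB). With the canonical transcript length, which is much shorter than the exon sequence for EZH2, these ratios were 0.0422, 0.202 and 4.72. AEBP2 was above EZH2 in 2 of 11 G&T cells, 5 of 11 Takara cells and 11 of 11 NEB cells by exon sequence, and in 0, 0 and 11 cells by canonical length. The ratio of AEBP2 to its partner JARID2 was 0.491, 2.78 and 65.0. The NEB value rests on 87 JARID2 reads, 63 of them in the cell D1. In NEB 5 of 11 cells had reads of both genes, with ratios from 12.4 to 490.

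The core subunits also changed places. EED stood below SUZ12 per length in 11 of 11 G&T cells (ratio 0.297) and above it in 11 of 11 Takara cells (1.88). In NEB the ratio was 0.576, with EED higher in 1 of 11 cells. With canonical lengths the EED to SUZ12 ratio was 0.683, 4.33 and 1.32, and EED was higher in 3, 11 and 5 of 11 cells. The EZH2 to SUZ12 ratio was 0.489 (G&T), 1.23 (Takara) and 0.236 (NEB), and 1.36, 3.41 and 0.658 with canonical lengths, which puts G&T above 1. Among paralogs, RBBP7 exceeded RBBP4 in all 33 kept cells, at a ratio of 4.47 (G&T), 4.79 (Takara) and 10.6 (NEB). EZH2 to EZH1 was 3.66 in G&T and 2.74 in Takara, and 63.9 in NEB, where it rests on 6 EZH1 reads. MTF2 to PHF19 was below 1 in G&T (0.555) and Takara (0.530) and above 1 in NEB (3.69), where MTF2 was higher in 9 of 11 cells against 3 of 11 in each other protocol.

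**Figure D3:**
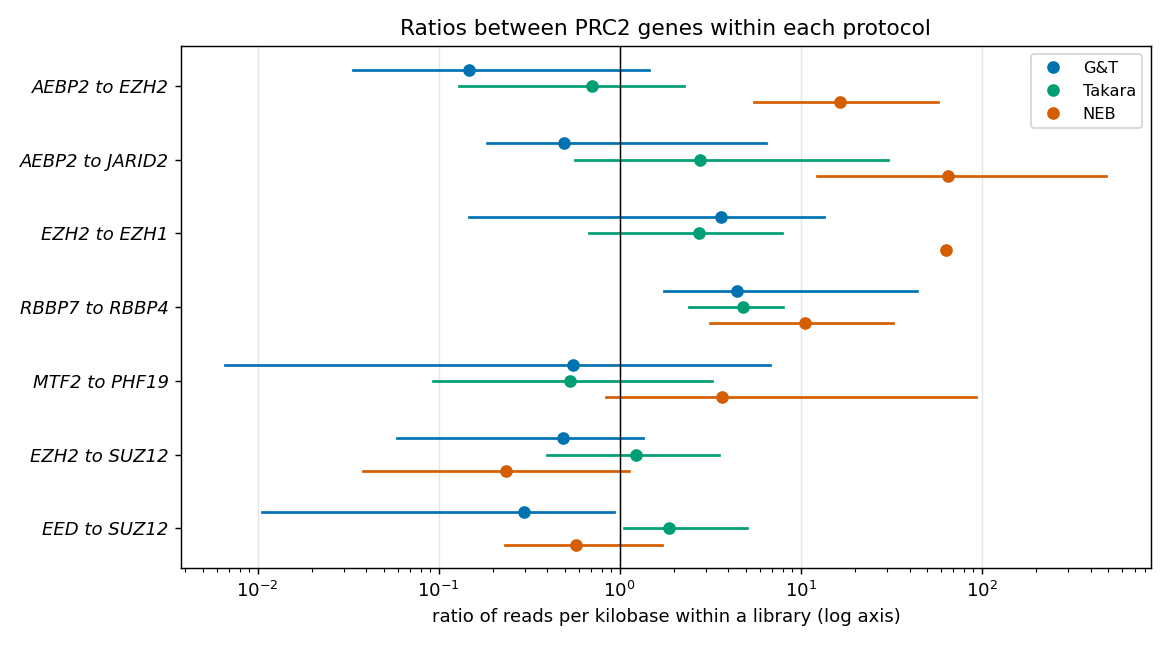
Ratios of reads per kilobase of exon sequence between pairs of PRC2 genes within a library (horizontal log axis). Points are the pooled ratio over 11 cells and bars span the cells in which both genes had a read. The NEB bar for AEBP2 to EZH2 begins at 5.53, above the highest G&T and Takara cells (1.45 and 2.28), and the Takara bar for EED to SUZ12 lies above the G&T bar.

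A cell had a read for 9.73 ± 0.65 of the 10 genes in G&T (SD over 11 cells, lowest 8, highest 10), 9.36 ± 0.67 in Takara (from 8 to 10) and 7.55 ± 1.21 in NEB (from 5 to 9). When every cell was thinned to 624772 gene reads, the means were 9.61, 9.31 and 7.51. With at least 5 reads required, they were 9, 9.18 and 7. In NEB cells AEBP2, SUZ12 and RBBP7 had a read in all 11 cells, MTF2 and PHF19 in 10, RBBP4 in 9, EED in 8, EZH2 in 7, JARID2 in 5 and EZH1 in 1. NEB cells had reads on 4416 to 6719 genes of any kind, against 9541 to 12794 in G&T and 10624 to 11855 in Takara. The part of that difference in the missing PRC2 genes was not tested.

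The ratios of NEB to the other protocols were lower for transcripts with more G and C. Across 11240 genes with a canonical coding transcript, Spearman's rho between that share and the log2 ratio was -0.590 for NEB over G&T, -0.598 for NEB over Takara and 0.127 for Takara over G&T. Other transcript features varied with the ratios too. In the same order, rho was 0.088, 0.263 and -0.371 with length and 0.182, 0.284 and -0.242 with the length of the 3′ untranslated region. With the longest run of A it was 0.291, 0.394 and -0.268. Genes of a library share its base composition and depth, so these are descriptions. Across the 10 PRC2 genes, with AEBP2 included, rho with G and C was -0.673, -0.661 and -0.115. With the genes split into 10 classes of about equal size by G and C, the median NEB over Takara ratio was 1.05 in log2 in the lowest class and -2.70 in the highest. MTF2 (37.5%), SUZ12 (38.2%) and AEBP2 (38.6%) had the least G and C of the 10 genes, and EZH1 (50.6%) and PHF19 (56.6%) the most.

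AEBP2 was 5.38 log2 units above the median of its class for NEB over G&T and 4.47 above for NEB over Takara. It was chosen for its high NEB level, so these distances follow from the choice and are a description. PHF19 lay within 0.39 and 0.22 of the median of its class, and MTF2 within 0.22 and 0.15. EZH1 lay 2.95 and 1.93 units under the median of its class. From their class medians, EED was at 1.19 and 1.35, RBBP7 at 1.35 and 0.05, and RBBP4 at -0.10 and -1.40. JARID2 was at -0.16 and 1.44, and EZH2 at -0.79 and 0.70. SUZ12, in the same class as AEBP2, lay 0.26 under the class median for NEB over G&T and 2.31 above the class median for NEB over Takara. The AEBP2 transcript (5830 bases) is mostly its 3′ untranslated region, 4113 bases or 70.5% of the length with 30.2% G and C, whereas its coding part has 56.8%. Where along AEBP2 the reads lie was not analysed here.

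**Figure D4:**
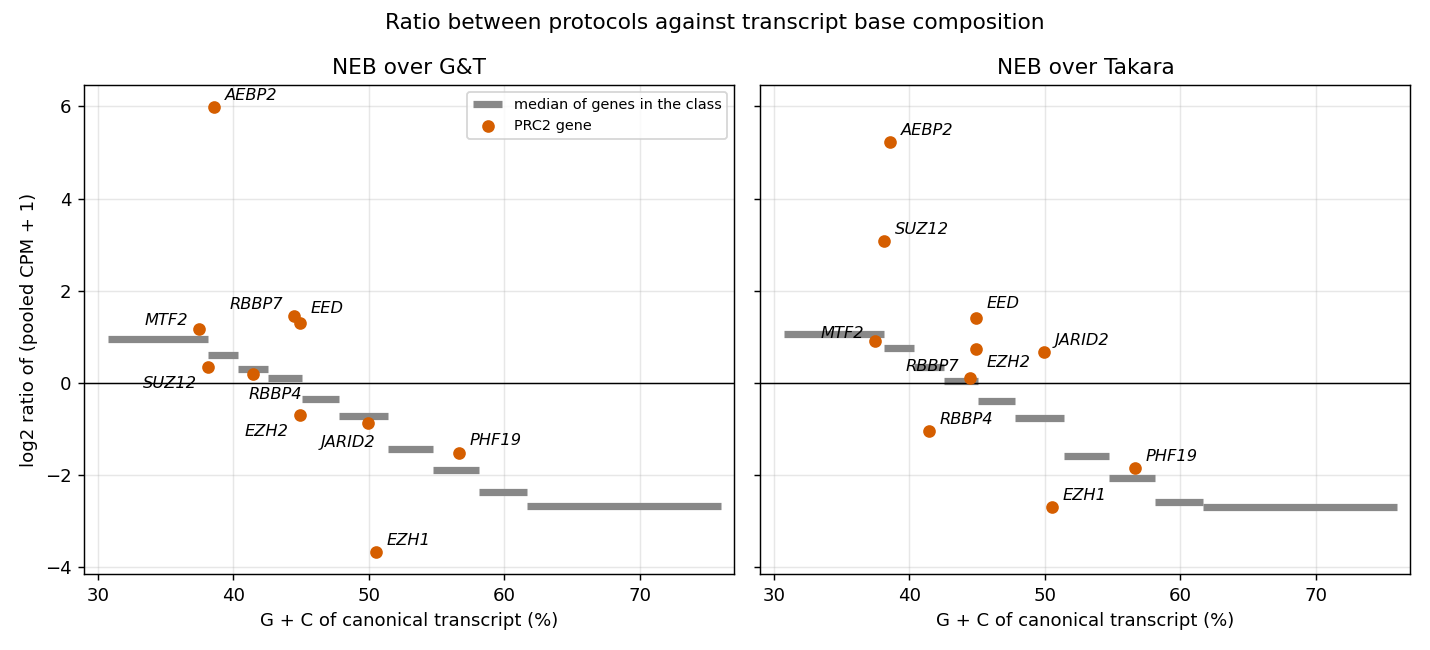
Log2 ratio of pooled CPM + 1 (vertical axis) against G + C of the canonical transcript in percent (horizontal axis) for NEB over G&T and NEB over Takara. Grey bars are the medians of 10 classes of 11240 genes and points are the PRC2 genes. The medians run from 1.05 to -2.70 for NEB over Takara, and AEBP2 lies at 5.23 where its class has a median of 0.76.

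Of 6 annotated genes inside AEBP2, 5 were in the count tables, and they had at most 2 reads in any protocol. The gene before it, PLEKHA5, had 147 reads (G&T), 156 (Takara) and 538 (NEB), a log2 ratio of 2.06 for NEB over G&T and 2.26 for NEB over Takara, turning to -0.64 and -1.41 per ERCC read. The next coding gene after it, PDE3A, had no read.

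The genes whose levels were most like those of AEBP2 over the 33 kept cells, by Pearson's r of log2(CPM + 1) among 9344 genes, included C6orf62 (r = 0.944), SEC22B (0.943), CXADR (0.937) and PAFAH1B2 (0.934). The points share 3 protocols, and the r mostly sets NEB against the rest. C6orf62, of little known function, was at 9639 CPM in NEB against 315 in G&T and 227 in Takara, and PAFAH1B2, a subunit of an acetylhydrolase of platelet-activating factor, at 2331 against 96.3 and 78.8. The lowest NEB cell of each of these 4 genes was above the highest cell of the other protocols. They were picked by the r with AEBP2, so that separation largely follows from the choice. Per ERCC read C6orf62 and PAFAH1B2 were still higher in NEB than in Takara (log2 ratios 1.65 and 1.13), while CXADR (-0.41) and SEC22B (-1.44) were lower. Over G&T the 4 genes were all higher in NEB per ERCC read (2.18, 1.84, 1.00 and 0.27 in the same order). The transcripts of these 4 genes held 36.4% to 41.0% G and C. Within the 11 NEB cells the genes most like AEBP2 among 8663 were CASP6 (r = 0.904), PSMD10 (0.886), MRPL17 (0.866), EBP (0.865) and CCDC14 (0.862), none of them among the genes named for all cells. With 11 cells and 8663 genes such values are a description only.

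Other genes around PRC2 are given by list. Each count of genes higher in NEB is of shares of gene reads, and per ERCC read 0 genes of any of these lists were at least 2-fold higher in NEB. Of 4 tested accessory genes of PRC2 that are not among the 10, 1 was higher and 2 were lower in NEB than in either other protocol, and per ERCC read 4 were lower than in G&T and 3 than in Takara. Counts of lists this short are read against the shares over all genes. These were 20.2% higher and 44.4% lower for NEB over G&T, and 23.1% and 41.8% for NEB over Takara. Counts per ERCC read, here and below, have no such share beside them. On that scale the median gene shifted by -2.76 in log2 for NEB over G&T and by -3.76 for NEB over Takara. Nothing is called particular to a list. LCOR, whose locus also encodes a PRC2.1 subunit, was at 53.6 CPM (G&T), 19.7 (Takara) and 145 (NEB), a log2 ratio of 1.42 for NEB over G&T and 2.82 for NEB over Takara, turning to -1.32 and -0.87 per ERCC read. PHF1, a paralog of MTF2 and PHF19, was at 22.8 and 32.9 CPM in G&T and Takara and had 2 reads in NEB cells. PHF1 holds 59.5% G and C and LCOR 43.0%.

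PRC1 is the second Polycomb complex, which ubiquitinates histone H2A and reads the mark made by PRC2. Of its 22 tested genes, 2 were at least 2-fold higher and 11 lower in NEB than in G&T, and 4 higher and 11 lower than in Takara, against 0 higher and 20 and 21 lower per ERCC read. The lower shares (11 of 22) lay near those of all genes (44.4% and 41.8%). The median log2 ratio was -0.96 and -0.79, or -0.96 and -0.56 with genes at 0 set to the limit of 3 reads per protocol. A NEB cell had a read for 3 to 9 of 23 PRC1 genes, against 15 to 23 in G&T and 16 to 22 in Takara. YAF2, a subunit of variant PRC1, was at 21.8, 5.89 and 96.7 CPM in G&T, Takara and NEB. BMI1, a subunit of canonical PRC1, was at 10.00, 7.77 and 42.4 CPM, with its NEB reads in 3 cells. CBX2, a reader of the PRC2 mark, was at 22.4 and 24.9 CPM in G&T and Takara and had no read in NEB, at least 59.6-fold and 66.2-fold lower against 3 reads. L3MBTL2, of another variant PRC1, was at 21.8 and 31.2 CPM and also had no NEB read, at least 57.9-fold and 82.8-fold lower.

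Of 7 tested genes of PR-DUB, the complex that removes the H2A mark, 1 was higher and 2 lower in NEB than in G&T, and 2 higher and 2 lower than in Takara, where 20.2% and 44.4%, and 23.1% and 41.8%, of all genes were. Per ERCC read 7 and 6 of the 7 were lower in NEB. Its subunit ASXL2 was at 27.2 CPM (G&T), 3.67 (Takara) and 49.2 (NEB). FOXK2 was at 45.7, 15.8 and 7.15 CPM. KDM6A, which removes the PRC2 mark, was at 17.3, 16.6 and 38.6 CPM, and its paralog KDM6B at 4.63, 2.30 and 2.13 CPM. Of 20 partners of RBBP4 and RBBP7 in other complexes, 0 were at least 2-fold higher and 7 lower in NEB than in G&T, and 5 higher and 6 lower than in Takara, so the share lower than in G&T (7 of 20) was under the 44.4% of all genes. Per ERCC read 20 and 19 of the 20 were lower. BPTF, of the NURF remodeller, was at 180 CPM (G&T), 28.7 (Takara) and 300.5 (NEB). CHAF1A, of chromatin assembly factor 1, was at 46.6 and 19.7 CPM in G&T and Takara with 1 read in NEB.

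HOX genes are classical targets of PRC2. Of 39, 10 were tested, 0 were at least 2-fold higher and 5 lower in NEB than in G&T, and 2 were higher and 2 lower than in Takara. The 5 of 10 lay near the 44.4% over all genes. Per ERCC read 10 of 10 were lower in both comparisons, on a scale where the median gene also shifted down in NEB. HOXB2 was at 25.5 CPM in G&T and 37.7 in Takara and had no read in NEB. HOXC10 had 64.2, 57.3 and 53.2 CPM in G&T, Takara and NEB. For Takara over G&T, 2 PRC1 genes were higher and 6 lower, 0 and 3 PR-DUB genes, 0 and 7 RBBP partners, and 1 and 4 HOX genes, beside 17.4% and 20.9% of all genes. Per ERCC read these counts were 8 and 3, 1 and 1, 6 and 2, and 4 and 4.

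EZH2 is a gene of proliferating cells, and its level was set beside the summed CPM of 12 genes of G2 phase and mitosis, which ranged from 294 to 10234 in G&T cells, from 136 to 14900 in Takara and from 29.5 to 15669 in NEB. Pearson's r over 11 cells was 0.420 (G&T), 0.221 (Takara) and 0.587 (NEB), and Spearman's rho was 0.545, 0.636 and 0.433. Without the 2 cells farthest from the median of the sum, r was -0.03, 0.52 and 0.06. Cells of a protocol share plate and run, and the relation rests on a few cells in G&T and NEB.

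The cells carried the markers of the luminal line. All 8 luminal markers (EPCAM, KRT8, KRT18, KRT19, ESR1, PGR, GATA3 and FOXA1) had reads in every kept G&T and Takara cell, and 7 to 8 in each NEB cell. Their summed level was 3931 to 15639 CPM in G&T cells, 9989 to 26747 in Takara and 1748 to 6731 in NEB. Single markers differed in direction, with KRT8 at 4237, 5234 and 84.8 CPM in G&T, Takara and NEB. ESR1 was at 235, 73.1 and 877 CPM, but its NEB ratios turned per ERCC read (-0.86 over G&T and -0.17 over Takara). Of 7 markers of immune, endothelial, stromal and basal cells, 2 had reads in Takara and NEB (COL1A1 and VIM, the NEB reads of VIM in 3 cells), with summed levels of 0 to 53.7 and 0 to 128 CPM, while PTPRC, PECAM1, COL1A2, KRT5 and KRT14 were at 0. In G&T those 5 had 1 to 12 reads over 11 cells, and the sum was 1.52 to 47.2 CPM.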

How the data were processed

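RNA of single T47D cells was measured with 3 protocols. The authors trimmed reads with Trim Galore, aligned them with STAR to GRCh38 (names from the submitters' processing notes) and deposited counts, the whole number of reads per gene and cell, unfiltered and not normalized. The annotation release and use of strand are not given in the sources used here. There are no molecular identifiers, so PCR copies are counted. Kept cells had 658154 to 1166633 gene reads in G&T, 818512 to 1287911 in Takara and 624772 to 963816 in NEB. Unassigned reads, which name no gene, made up 32.7%, 19.9% and 25.4% of reads and stayed out of all totals.

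Cells were kept with at least 1000 genes, a library of at least 600000 reads, and at most 30% mitochondrial and 25% ERCC reads. Counts were turned into CPM of gene reads, summed over kept cells, and compared as log2 ratios with a pseudocount of 1 CPM. Genes with a mean pooled level of at least 1 CPM entered comparisons (13064), and a 2-fold ratio was the call. Levels at 0 stayed at 0 in the log2 ratios of CPM, before 1 CPM was added. They took a limit of 3 reads in plain folds, in medians named so and in ratios per ERCC read. Ratios per ERCC read had no pseudocount, so 2-fold counts on the CPM and ERCC scales also differ in this. Lengths, base composition and sequences came from GENCODE release 44, which lacks 4175 listed genes. Ratios within a library used the union of exons of a gene.

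The 10 genes, the gene lists and the alternatives were chosen with earlier results of these data known. All 10 are named. From each list, up to 3 genes per direction and pair with the largest ratio among those of at least 10 CPM were considered. Other genes named from lists (KDM6B and HOXC10) were chosen after their values were seen. The genes most like AEBP2, 5 over all kept cells and 5 over NEB cells, had a read in at least 17 kept cells, and 1 of them is not reported here. Alternatives changed the cells, the denominator, TMM scaling, ERCC scaling, pooling, pseudocount, filter, length and detection limit. The steps were tested on simulated data. Tools were Python 3.11.15, numpy 2.4.6, pandas 2.3.3, scipy 1.17.1, matplotlib 3.10.9, R 4.3.3 and, for TMM factors only, edgeR 4.0.16.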

Additional observations from a re-analysis of the deposited data

Results flagged for a closer look

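Cells that the quality thresholds removed entered no comparison, and 4 of the 7 held AEBP2 above the limit of 3 reads. AEBP2 was at 11.3 CPM in the removed G&T cell C2 and 12 CPM in G&T F1, inside the range of the kept G&T cells (0 to 24.8 CPM). It was at 1777 CPM in the removed NEB cell B2 (801 reads), above the highest kept NEB cell (1267 CPM), and at 1075 CPM in NEB F2 (591 reads). The removed NEB cell F1 had 1 AEBP2 read, and both removed Takara cells had none. No group of cells was tested for outliers, since each held 11 cells.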

How the results depend on the processing

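No paired analysis was possible because the results come from no test and the cells of different protocols share no replicate. Under 8 of 9 alternatives of cells, denominators, scaling, pooling and pseudocount, none of the 17 ratios of the 10 genes past 2-fold changed sign, of 30 in all. Among the 13 within 2-fold, medians of cells turned 4, namely JARID2 (-1.96), EZH2 (-0.35) and RBBP7 (-0.05) for NEB over Takara and RBBP4 (-0.85) for NEB over G&T, and ERCC reads in the denominator turned RBBP7 for NEB over Takara (-0.07). Scaling per 1000 ERCC reads turned 12 of 30, and 5 of those past 2-fold: EED (-1.46), RBBP7 (-1.32) and MTF2 (-1.57) for NEB over G&T, and SUZ12 (-0.63) and EED (-2.34) for NEB over Takara. On that scale AEBP2 was at 3.35 (NEB over G&T), 1.54 (NEB over Takara) and 1.80 (Takara over G&T). The numbers of the 10 genes 2-fold higher and lower were 1 and 9, 1 and 8, and 5 and 1. The median gene shifted by -2.76, -3.76 and 0.99 there, and no share over all genes stands beside these counts. With a pseudocount of 5 the AEBP2 ratios were 5.58 and 4.98. With medians of cells, which moved the median gene by -0.46, -0.63 and 0.13, 4 genes were lower in NEB than in G&T and 1 was higher in Takara than in G&T. ERCC reads in the denominator moved the median gene by -0.14 and -0.15 for NEB, and leaving out mitochondrial genes by -0.11 for NEB over G&T. With no filter on low values, 11.3% of genes were higher and 28.4% lower for NEB over G&T, 12.98% and 23.3% for NEB over Takara, and 9.80% higher for Takara over G&T, since more genes with few reads enter.

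A limit of 5 reads gave 9 detected genes in G&T, and all deposited cells gave 8.08 in Takara. AEBP2 to EZH2 was 0.0422, 0.202 and 4.72 with canonical lengths, and in NEB 11.7 as the median of cells and 18.6 with all cells. Leaving out 1 cell gave 14.7 to 24.2 in NEB, 0.633 to 0.842 in Takara and 0.123 to 0.172 in G&T. Leaving out 1 cell also gave AEBP2 ratios of 5.84 to 6.14, 5.12 to 5.32 and 0.61 to 0.92, and 2 to 4 genes lower in NEB than in G&T, 4 without NEB D1. The 6 EZH1 reads in NEB limit the precision of its level.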
